A study of Mus musculus with 16 samples.

Results

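Veh-only regions are stretches of chromatin with a peak in the deposited list of vehicle-treated macrophages and in none of the lists of treated ones. ATAC-seq, which reads the places where the Tn5 transposase can insert adaptors into DNA, was applied to macrophages grown from the bone marrow of C57BL/6J mice. Overlapping peaks of the 4 deposited lists (at least 1 bp) were merged into 37648 regions, and 2910 of these (7.73%) were selected on holding a Veh peak and no peak of the T0, LPS or T0-LPS list. They made up 8.19% of the 35551 Veh peaks.

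Each list pooled 4 libraries of 50000 cells. Bone marrow of female mice aged 8 to 10 weeks was grown in L-cell conditioned medium, and all cultures went through serum deprivation before treatment on day 8. The Veh group received DMSO and the T0 group 500 nM of the LXR agonist T0901317, and both were harvested after 3 h. The LPS and T0-LPS groups had the same respective 3 h treatments, and 10 ng/mL lipopolysaccharide was then added to the same medium for a further 2 h. The T0-LPS cells were thus also exposed to the agonist for longer than the T0 cells. LPS, the longer culture and this longer exposure cannot be told apart. No group was harvested at the later time without LPS. The lists hold 1 pooled value per peak, so there is no replicate error and no p-value, and the 95% Wilson intervals given in parentheses cover counting error over peaks only.

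The liver X receptors (LXRs) are nuclear receptors that are activated by oxysterols and switch on genes of cholesterol efflux. They bind DNA as partners of the retinoid X receptor at repeats of a short half-site. LPS acts through the receptor TLR4, which activates NF-kB, AP-1 and, through interferon regulatory factors (IRFs), a type I interferon programme. Macrophage enhancers are kept open largely by PU.1 together with C/EBP, AP-1 and RUNX factors, and signal-dependent factors bind next to them.

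The labelled cell type was checked first. All 10 macrophage markers, among them the M-CSF receptor gene Csf1r and the PU.1 gene Spi1, had a Veh peak within 1 kb of a transcription start site (TSS). Of the defining genes of other cells, 0 of 8 for T cells, 1 of 7 for B cells, 1 of 8 for neutrophils, 2 of 6 for dendritic cells, 1 of 6 for erythroid cells and 1 of 6 for fibroblasts had one. The authors kept only peaks at macrophage enhancers, so this check is limited to such sites.

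Several Veh-only sequences are printed, from RefSeq GRCm38.p6 (mm10), plus strand. They are examples with motifs, while 54.5% of Veh-only peaks held none of the 9 motifs searched. Capitals mark the motif named with each sequence. The peak at chr4:95105496-95105718 lay in an intron of the non-coding gene Junos, 53385 bp upstream of Jun, an AP-1 subunit gene. It is shown whole as the highest-scoring Veh-only peak with Jun as its nearest protein-coding gene. Both an NF-kB and an AP-1 motif were found in it. The remaining sequences are central 200 bp windows of repeat-free Veh-only peaks where no other list had room for a removed peak (room is explained with the scores), each the highest-scoring one of that kind for its motif. The half-site example lay between genes, 17399 bp upstream of Mrpl33, at chr5:31596440-31596639. The PU.1 example lay in an intron of Dnal4 at chr15:79768406-79768605, with the motif on the minus strand. The C/EBP example lay 368 bp into Nt5c3, in an intron, at chr6:56901418-56901617. That window also held a half-site and an AP-1 motif, which are left in lower case.
Junos intron, NF-kB and AP-1: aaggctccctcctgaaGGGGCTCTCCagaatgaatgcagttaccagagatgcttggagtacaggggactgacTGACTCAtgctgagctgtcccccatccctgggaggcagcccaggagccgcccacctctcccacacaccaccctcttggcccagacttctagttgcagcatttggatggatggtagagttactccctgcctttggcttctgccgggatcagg
Mrpl33 upstream, half-site: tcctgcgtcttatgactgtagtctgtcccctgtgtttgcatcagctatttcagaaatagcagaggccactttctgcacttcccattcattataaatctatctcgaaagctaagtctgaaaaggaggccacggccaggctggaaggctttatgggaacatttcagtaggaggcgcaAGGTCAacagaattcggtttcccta
Dnal4 intron, PU.1: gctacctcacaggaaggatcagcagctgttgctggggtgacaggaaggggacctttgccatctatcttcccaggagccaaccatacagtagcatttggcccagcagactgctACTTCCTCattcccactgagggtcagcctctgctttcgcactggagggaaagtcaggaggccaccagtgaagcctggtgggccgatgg
Nt5c3 intron, C/EBP: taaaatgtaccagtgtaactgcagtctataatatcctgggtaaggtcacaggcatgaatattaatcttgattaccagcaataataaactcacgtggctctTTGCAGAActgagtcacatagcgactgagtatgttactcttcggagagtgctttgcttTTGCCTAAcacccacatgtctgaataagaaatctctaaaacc

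Veh-only peaks were weak and narrow. Their median score, the authors' peak caller score in the Veh list, was 120, with quartiles of 95 and 152 and a range from 33 to 1503. The 26600 Veh peaks found in all 3 other lists had a median of 486.5, and the 6041 found in 1 or 2 other lists a median of 158. Presence in a list and score come from the same calls, so these values describe the selection and are not a finding. A typical Veh-only peak ranked at the percentile 9.43 of the Veh list.

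**Figure D1:**
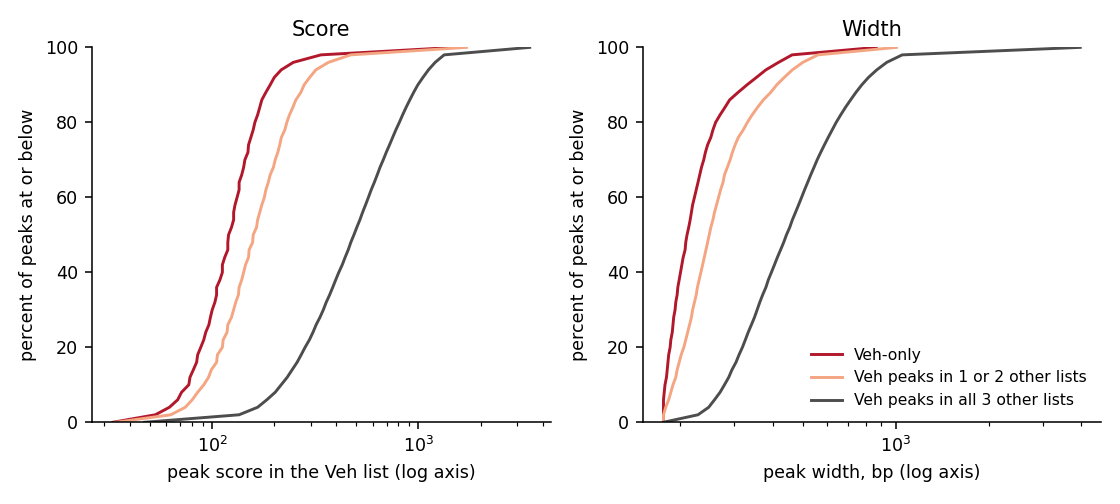
Cumulative percent of Veh peaks (vertical axes) by peak score and by peak width in bp (horizontal log axes), drawn at every second percentile for Veh-only peaks, Veh peaks in 1 or 2 other lists and Veh peaks in all 3. The Veh-only curves lie furthest left, with medians of 120 for score and 211 bp for width.

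Width followed the same order. The median was 211 bp for Veh-only peaks (quartiles 189 and 249), 249 bp for peaks in 1 or 2 other lists and 443 bp for peaks in all 3. In each of the 4 lists 177 bp was the smallest width, which equals the extension size that the authors set for peak calling. Of the Veh-only peaks, 218 (7.49%) had exactly that width, against 10 (0.0376%) of the peaks in all 3 other lists. Together the 2910 regions covered 685 kb.

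The share of Veh-only peaks fell steeply with strength. In the lowest score decile of the Veh list 42.6% of peaks were Veh-only (41.0 to 44.3), in the next 26.6%, in the third 8.44% and in the fourth 1.88%. Each higher decile held under 1%. The 3 lowest deciles contained 2763 of the 2910 regions (94.9%). The list lengths bear on this count, since the Veh list had 35551 peaks, the T0 list 29839, the LPS list 33181 and the T0-LPS list 31085. When every list was shortened to its 29839 highest-scoring peaks, 978 peaks were Veh-only, with a median score of 178.

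**Figure D2:**
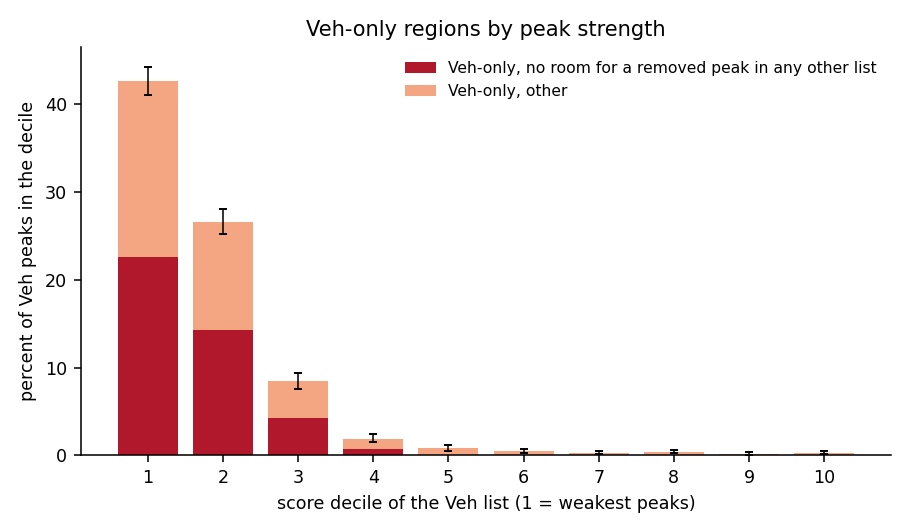
Percent of Veh peaks that were Veh-only (vertical axis) in each score decile of the Veh list (horizontal axis), with 95% Wilson intervals. The dark part of each bar is Veh-only peaks with no room for a removed peak in any other list. The share is 42.6% in decile 1 and 0.225% in decile 10.

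The 3 treated lists each lacked part of the Veh peaks on their own. The T0 list lacked 18.2% of them, the LPS list 13.0% and the T0-LPS list 17.7%. These comparisons share the Veh list, so they are given side by side only. The opposite single-list sets, from shorter lists, were smaller. They held 110 T0-only regions (0.369% of the peaks of that list), 907 LPS-only (2.73%) and 296 T0-LPS-only regions (0.952%). Their peaks were also weak in their own lists, at median scores of 96, 104 and 90 and median widths of 189.5, 210 and 203 bp.

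Before deposit the authors removed called peaks that did not match macrophage enhancers, so a region can be missing from a list because its peak was filtered out. Peak names carry numbers that rise along each chromosome, and a number missing between the neighbours of a site was taken as room for a removed peak there. No source used here states what these numbers count, so each statement on room rests on this reading. No other list had room at 1495 Veh-only regions (51.4%, 49.6 to 53.2). All 3 lists had room at 851 (29.2%). Room grew with the length of the interval between neighbouring peaks. In the T0 list it was found at 27.4% of Veh-only regions in intervals of 20 to 50 kb, against 25.2% of all such intervals, and at 70.8% against 63.9% in those over 100 kb. In the LPS list the shares over 100 kb were 79.5% and 71.6%.

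Strong Veh-only peaks all fell into the class with room. Of the 52 peaks at or above the Veh median score of 372, 52 had room in all 3 other lists. The intervals around these 52 were long, at medians of 67.8 kb in the T0 list, 70.8 kb in the LPS list and 72.8 kb in the T0-LPS list. Of all intervals of 50 to 100 kb in these lists, 42.6%, 50.7% and 43.7% had room. Whether interval length accounts for the room at the 52 was not tested. For the 2675 peaks with scores under 200 the median intervals were 43.3, 37.2 and 40.4 kb, and 1425 of these peaks (53.3%) had no room in any list. Between these lay 183 peaks with scores from 200 up to the median, of which 70 (38.3%) had no room. The highest score without room in any other list was 322, at the percentile 43.8.

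Of the 5 highest-scoring Veh-only peaks, all with room in each other list, 4 are described. The first, with a score of 1503, started at position 175868871 of chromosome 2, in an untranslated region at the start of Gm6710. The nearest peak of any other list lay 356489 bp away, and each list had room for at least 13 removed peaks. The others were an intron peak of Ttc39b (score 1299), a peak near the ribonuclease gene Ang2 (1220) and the start of Gm14327 (1140), also on chromosome 2. Whether these sites were closed or filtered out in the treated lists was not tested.

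Some regions sat close to the edge of the rule. The nearest peak of another list was 4 bp away from a Veh-only peak on chromosome 2 (94144651 to 94144993, score 65), which had the smallest distance. The smallest overlap among Veh peaks that were not Veh-only was 13 bp. Another list had a peak within 200 bp of 282 Veh-only regions (9.69%) and within 1 kb of 933 (32.1%), while 789 (27.1%) had none within 10 kb. The median distance was 3017 bp. The nearest other Veh peak was at a median of 2807.5 bp from a Veh-only peak, 2893.5 bp from peaks in 1 or 2 other lists and 5119 bp from peaks in all 3. At like strength the order differed. The medians were 2709 bp for Veh-only and 2280.5 bp for other Veh peaks in the lowest decile. They were 2231 against 2267 in the next and 3230.5 against 2660 in the third. In each higher decile the Veh-only median was the larger, at 5854 against 2942.5 in the fourth and 7738 against 3737 in the fifth.

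Veh-only peaks lay away from promoters more often than other Veh peaks did. The midpoint was within 1 kb of a TSS for 674 Veh-only peaks (23.2%, 21.7 to 24.7), against 40.4% of the other Veh peaks (39.9 to 40.9). The share was 27.7% of peaks in 1 or 2 other lists (26.6 to 28.9). It was 17.4% of those shared with T0 alone (15.2 to 19.9). Position was not used to choose the regions, but strength was, and the 2 are linked. Within the lowest score decile the shares were 29.2% for Veh-only and 41.5% for other peaks, in the next 18.8% and 33.9%, and in the third 12.3% and 33.1%. In each of these deciles the intervals did not overlap. Peaks along the genome are not replicates of a condition, so this difference has no test across samples.

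**Figure D3:**
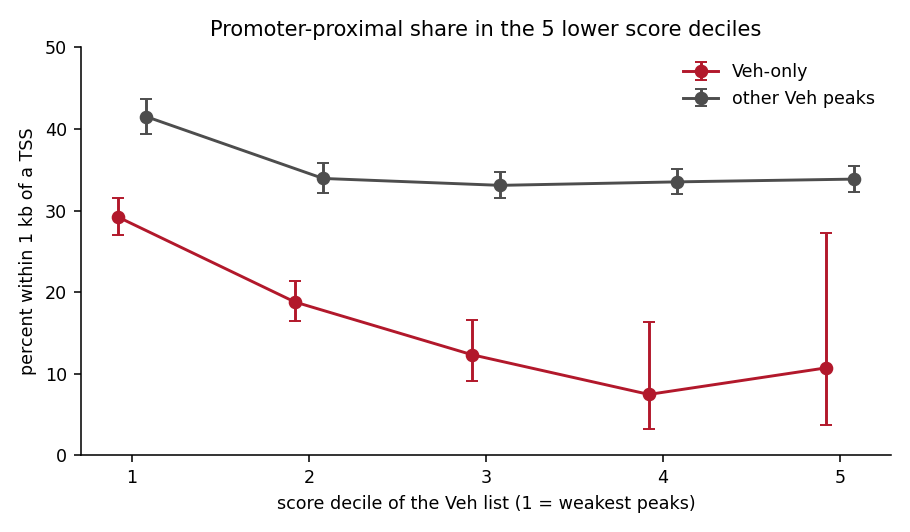
Percent of Veh peaks with their midpoint within 1 kb of a TSS (vertical axis) in the 5 lower score deciles of the Veh list (horizontal axis), with 95% Wilson intervals. Veh-only peaks lie below the other Veh peaks in each decile shown, at 29.2% against 41.5% in decile 1.

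Base composition moved with this difference. The median GC content of the central 200 bp was 49.5% for Veh-only and 53% for other Veh peaks. No CpG was held by 11.2% against 7.13% of windows. Peaks in 1 or 2 other lists had a median of 50.5%, and 9.36% of their windows held no CpG. For peaks shared with T0 alone the values were 50% and 10.2%. In the lowest score decile the medians were 50.5% for Veh-only and 53.5% for other peaks, and 9.97% against 6.60% of windows held no CpG. Among peaks of the 3 lowest deciles with a GC content under 45%, 8.85% of Veh-only (6.91 to 11.3) and 10.5% of other peaks (9.07 to 12.0) were within 1 kb of a TSS. From 45 to 55% GC the shares were 15.8% (14.0 to 17.8) and 17.7% (16.4 to 19.1). In both classes the intervals overlapped. At 55% GC or more they were apart, at 51.5% (48.0 to 55.1) and 66.9% (65.2 to 68.5).

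Introns held 1588 Veh-only midpoints (54.6%), against 42.0% of other Veh peaks. The share was 51.7% of peaks in 1 or 2 other lists and 55.8% of those shared with T0 alone. Intergenic sequence held 1000 (34.4%, against 37.8%), untranslated regions 172 (5.91%, against 13.4%), coding exons 81 and exons of non-coding transcripts 69. In the lowest score decile the intergenic share was 33.6% for both Veh-only and other Veh peaks. The median distance to a TSS was 6514 bp for Veh-only and 3157 bp for other Veh peaks, against 5769 bp for peaks in 1 or 2 other lists and 8481 bp for those shared with T0 alone, and 40.5% of Veh-only midpoints were over 10 kb away. Of those within 1 kb, 310 lay upstream of the TSS and 364 at or downstream of it. Repeat-masked bases made up a median of 9.55% of a Veh-only peak and 6.98% of another Veh peak. The median was 8.23% for peaks in 1 or 2 other lists and 9.05% for those shared with T0 alone. By chromosome the Veh-only share of Veh peaks ran from 6.35% on chromosome 16 (5.13 to 7.84) to 9.63% on X (7.78 to 11.9), whose intervals just overlapped. The interval of chromosome 9 (9.58%, lower bound 8.33) lay above that of chromosome 16. The intervals were not adjusted for the number of chromosomes, and peaks were not matched by score. The Y chromosome had 0 of 8 (0 to 32.4).

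Consensus motifs were searched on both strands of the central 200 bp, a window that reaches past the ends of the narrowest peaks, and 54.5% of Veh-only peaks held none of the 9. The nuclear receptor half-site AGGTCA, part of the LXR element, was found in 12.7% of Veh-only peaks (11.5 to 13.9) and 11.7% of other Veh peaks. AP-1 (TGACTCA or TGAGTCA) was found in 13.3% and 13.4%, and C/EBP (TTGCNNAA) in 10.5% of both. In the 3 lowest deciles C/EBP stood at 16.5% against 20.2% under 45% GC and 11.5% against 13.0% from 45 to 55%. Above that it stood at 3.35% against 4.91%, and in each GC class the intervals overlapped. PU.1 (GAGGAAGT) was found in 9.93% against 8.72%, but in 8.37% of the Veh-only peaks without room in any other list. In the lowest decile the PU.1 shares were 8.84% and 7.04%, and in the next 10.6% and 8.37%, with overlapping intervals. In the third they were 13.0% (9.66 to 17.3) and 8.52% (7.61 to 9.53), with intervals apart. Within each GC class of the 3 lowest deciles the PU.1 intervals overlapped. RUNX (TGTGGTTT) was found in 3.88% against 3.14%, and the CTCF motif in 1.58% against 0.819%. In the lowest decile CTCF stood at 1.58% and 1.53%. A match is a run of letters and does not show that a factor was bound.

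The E-box of MITF and TFE factors (TCACGTGA) was rare in all peaks and was found in 6 Veh-only windows (0.206%, 0.0946 to 0.449), against 0.576% of other Veh peaks (upper bound 0.665), with intervals apart. In the lowest decile its shares were 0.396% (0.182 to 0.861) and 0.985% (0.639 to 1.52), with overlapping intervals.

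NF-kB motifs were also less frequent in Veh-only than in other Veh peaks. They were found in 33 of 2909 windows (1.13%, 0.809 to 1.59), against 3.53% of other Veh peaks (3.33 to 3.73). In the 3 lowest deciles in turn the shares were 1.52% against 4.98%, 0.739% against 3.57% and 0.333% against 3.57%. The order was the same in each GC class of these weak peaks, at 0.153% against 2.49% under 45% GC, 0.735% against 3.39% from 45 to 55%, and 2.68% against 5.23% above that. IRF motifs were found in 3.03% of Veh-only and 3.52% of other Veh peaks, with overlapping intervals. In the lowest decile the IRF shares were 2.90% (2.17 to 3.88) and 4.88% (4.02 to 5.90), in the next 3.06% and 4.87%, with overlapping intervals, and in the third 3.33% and 4.03%. By GC class of the weak peaks they were 4.89% against 7.66% under 45% GC, 2.79% against 5.63% from 45 to 55%, and 1.74% against 1.76% above that.

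Weak Veh peaks split by the lists that shared them had unlike shares of these motifs. Of the 1661 peaks of the 3 lowest deciles that were also in the LPS and T0-LPS lists but not in T0, 7.10% held an NF-kB motif (5.97 to 8.44) and 7.28% an IRF motif (6.13 to 8.64). Of the 760 found also in T0 but in neither LPS list, 0.658% held NF-kB (0.281 to 1.53) and 2.63% IRF (1.71 to 4.03). The 2762 weak Veh-only peaks stood near the latter, at 1.12% (0.792 to 1.59) and 3.01% (2.43 to 3.71). Weak peaks in all 3 other lists stood between, with 4.55% NF-kB (3.87 to 5.35) and 3.88% IRF (3.25 to 4.62). Those shared with LPS alone did too, with 2.81% (1.99 to 3.96) and 4.71% (3.61 to 6.12). The half-site had another order. It was found in 16.4% of the peaks shared with T0 alone (14.0 to 19.3), in 12.5% of the Veh-only peaks (11.3 to 13.8) and in 10.8% of those shared with both LPS lists (9.43 to 12.4). The intervals of the Veh-only peaks and of those shared with both LPS lists overlapped. In weak peaks of all 3 other lists the half-site share was 11.8%, and in those shared with LPS alone 11.1%. Promoter-proximal shares of the peaks shared with T0 alone, the Veh-only peaks and those shared with both LPS lists were 18.9%, 23.8% and 33.4%. Median GC contents were 50.75%, 49.5% and 50%, and median scores 155, 119 and 136.

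**Figure D4:**
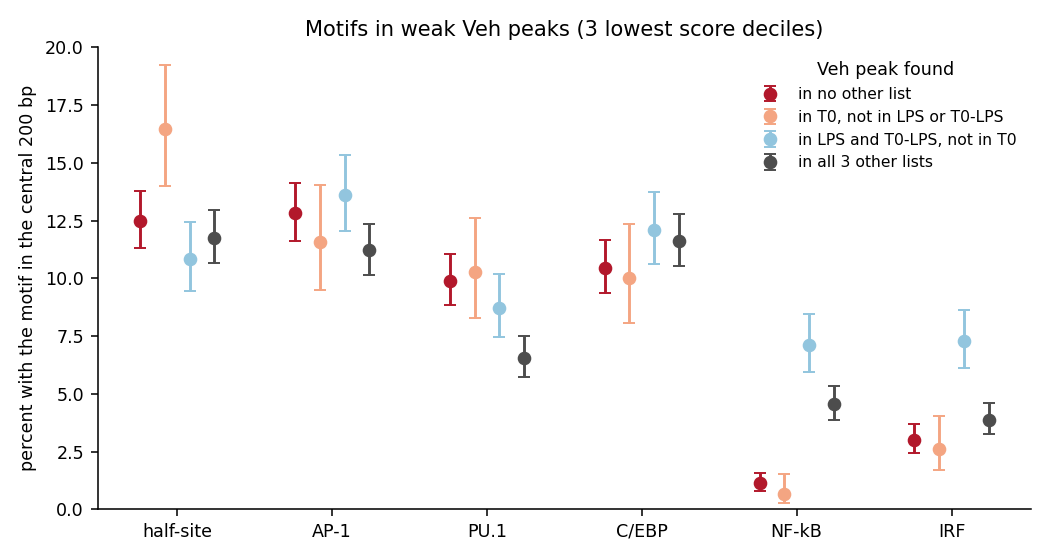
Percent of weak Veh peaks (3 lowest score deciles) with each consensus motif in the central 200 bp (vertical axis), with 95% Wilson intervals, by the other lists that held the peak. NF-kB stands at 1.12% in Veh-only peaks and 7.10% in peaks shared with LPS and T0-LPS but not T0.

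Genes near Veh-only regions were many. Of 21911 protein-coding genes, 7069 (32.3%) had a Veh-only midpoint within 100 kb of the TSS. The share rose with the number of Veh peaks in that window, from 9.18% of genes with 1 to 2 peaks to 89.8% of genes with over 20. Gene counts were therefore read beside the Veh-only share of the Veh regions around each list of genes, for which the whole list gives 8.19%. The lists were chosen with results of these data known, and a share near the background is no result about its genes.

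Around LXR targets, 9 of 159 Veh regions were Veh-only (5.66%, 3.01 to 10.4), and 9 of 19 genes had one. At Pltp, the phospholipid transfer protein gene, a Veh-only peak of score 137 lay 25 bp downstream of the TSS, and a peak of another list lay 78 bp from it. At Abcg1, a sterol exporter, a peak of score 90 and minimal width lay 21 bp upstream of a TSS. The desaturase gene Fads1 had one 8791 bp upstream (score 82), and Mertk, an efferocytosis receptor, an intron peak (score 78) with a half-site and a PU.1 motif. All of these were in the 2 lowest score deciles, and no list had room there. Abca1, the cholesterol exporter, had no Veh-only region within 100 kb.

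Around TLR4 and NF-kB signalling genes, 25 of 279 Veh regions were Veh-only (8.96%, 6.14 to 12.9), and 15 of 27 genes had one. Irak3, which encodes an inhibitory kinase of the pathway, had an intron peak with a score of 204 and a PU.1 motif. Tnfaip3, which encodes the NF-kB inhibitor A20, had one 70293 bp downstream (score 159). Nfkb1 had an intron peak with a score of 139. The LPS list had room at all of these sites. Cd14, the LPS co-receptor gene, had a peak 1034 bp upstream (score 146) without room in any list.

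Around cytokines, chemokines and inflammatory enzymes, 9 of 239 Veh regions were Veh-only (3.77%, 1.99 to 7.00), and 13 of 31 genes had one. Tnf was the 1 gene of the list with Veh-only regions lacking room, namely 2, the stronger at a score of 153. A single region lay near the interleukin-1 genes, between positions 129319913 and 129320485 of chromosome 2. It scored 491, held an AP-1 motif, and lay 10227 bp upstream of Il1a and 50940 bp downstream of Il1b. The nearest peak of another list was 10068 bp away, and all 3 lists had room. Il10, an anti-inflammatory cytokine gene, had a peak with a score of 268, and Cxcl1, a neutrophil chemokine gene, one with a score of 142 that held C/EBP and IRF motifs. Both also had room in every list. Lif had an intron peak of score 127 with a PU.1 motif.

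Around integrins and adhesion molecules, 15 of 208 Veh regions were Veh-only (7.21%, 4.42 to 11.6). Itgav, the integrin alpha V gene, had a peak 2424 bp upstream with a score of 238 and a half-site. Cd44, the hyaluronan receptor gene, had one 71650 bp upstream (score 190) and another within 10 kb of its TSS. Itgb1 had one 31785 bp upstream (score 143). Icam1, which encodes a ligand of leukocyte integrins, had one 1170 bp upstream (score 118). Itgb2, the shared beta chain of leukocyte integrins, had only a distant one, 97447 bp away in an intron of Ube2g2, with a score of 201 and room in all lists.

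Around phagocytosis and scavenger receptor genes, 10 of 176 Veh regions were Veh-only (5.68%, 3.12 to 10.1). The Fc receptor gene Fcgr4 had a peak 12384 bp upstream with a score of 208, a half-site and an IRF motif. Scarb1, an HDL receptor gene, had an intron peak (score 148), and the haemoglobin scavenger receptor gene Cd163 one in a coding exon (score 89). Fcgr1 had a peak in an intron 400 bp from the TSS (score 86).

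The factors of macrophage identity and their partners gave similar shares. Around macrophage transcription factors, 14 of 218 Veh regions were Veh-only (6.42%, 3.86 to 10.5), with peaks near Cebpa (score 191), Mef2c (174), Mef2a (174) and Mitf (144). Around AP-1 and ATF genes the share was 13 of 214 (6.07%, 3.58 to 10.1), with peaks near Jun (153), Fos (150), Atf3 (120) and Junb (107). Jun had 3 Veh-only regions within 100 kb, 1 of them within 10 kb. Around nuclear receptors and corepressors it was 13 of 150 (8.67%, 5.13 to 14.3). Intron peaks lay in Pparg (158), Rxra, the LXR partner (133), Ppard (116) and Rara (96), and no list had room at these 4. The Pparg peak lay 47395 bp from a transcript TSS but is not among the 13, which were counted from gene starts. The highest Veh-only score within 100 kb of the Pparg gene start was 146. Housekeeping genes gave 16 of 217 (7.37%, 4.59 to 11.6), with peaks near B2m (182), Rab7 (169), Actb (139) and Polr2a (98). Apart from the cytokine list, the interval of each of the 9 lists included the background of 8.19%. The intervals were not adjusted for the number of lists, and the peaks around a list were not matched to the background by score.

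The strongest Veh-only peaks without room had no common setting. Of the 10 with the highest scores, 9 are named here and the highest, at 322, is not. The next was a peak 42738 bp upstream of Ubl3 (score 317), followed by an intron peak of Ubtd1 (307) with a PU.1 motif and one 68780 bp upstream of the kinesin gene Kif5b (289) with a RUNX motif. Ypel4 had one 90 bp upstream of its TSS (279) with an AP-1 motif. The next were a peak 16739 bp upstream of Sncaip (274), coding exons of Arrdc1 (270) and of the chaperone gene Dnajc2 (270), an intron of Tmem260 (264) and a site 44736 bp downstream of the B3gnt2 start (259). None of the 9 motifs was found at the sites near Ubl3, Sncaip, Arrdc1 and B3gnt2.

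Promoter-proximal Veh-only peaks without room were led by Ypel4. Pacs2, a sorting protein gene, had one with a score of 220 at 741 bp into the gene, and Nt5c3, a nucleotidase gene, one with 215 at 368 bp. Sec13, a coat and nuclear pore subunit gene, had one 863 bp upstream (212). The pair Gm10392 and Abhd15 shared one with a score of 208. Elf1, an ETS factor gene, had one at 755 bp (200), and Cd52, which encodes a leukocyte surface glycoprotein, one 58 bp upstream of the TSS (200). Phactr4 (199), B4galt4 (192) and the co-chaperone gene Fkbp4 (188) completed the 10. The nearest peak of another list lay between 212 bp away, at Nt5c3, and 5925 bp away, at Ypel4.

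Almost equal parts of the Veh-only regions lay alone and in runs. With neighbours at most 100 kb apart, 1408 (48.4%) fell into 567 runs and 1502 stood alone. Veh peaks as a whole also lay close together, at a median of 4564.5 bp from the nearest other one. No like share was computed for other Veh peaks, so whether Veh-only regions cluster more than these was not tested. The longest run had 10 Veh-only regions among 24 Veh peaks on chromosome 11 (119720686 to 120042751), over Chmp6 and Baiap2, with scores from 65 to 174. On chromosome 7 (100856345 to 101092940), 7 of 26 Veh peaks were Veh-only over Relt, Arhgef17 and the nucleotide receptor genes P2ry6 and P2ry2. On chromosome 10 (120189294 to 120434702), 6 of 17 were, over Irak3, Tmbim4 and Llph, and 1 of these had no room in any list. The fifth run, on chromosome 19 (29419493 to 29499376), had 6 of 11 and no protein-coding TSS.

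The run at the CC chemokine receptor genes on chromosome 9 is described because it held the genes with the most Veh-only regions. These receptors guide monocytes, eosinophils and lymphocytes to CC chemokines. Within 100 kb of its TSS, Ccr3 had 7 Veh-only regions among 20 Veh peaks, Ccr1 had 6 of 19 and Ccr1l1 6 of 18. Outside the cluster, Man1c1 had 6 of 21 and Baiap2 6 of 18. Runs and genes were chosen by these counts, which carry no test.

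Of the 18 Veh peaks in the receptor run, 7 were Veh-only, and 6 of these are described. A pair lay 43251 and 40421 bp downstream of the Ccr1 TSS, with scores of 81 and 156. Another pair lay 5155 and 1876 bp upstream of the Ccr3 TSS, with the highest scores of the run's Veh-only peaks, 216 and 167. Downstream of Ccr3 were peaks at 32620 bp (score 137) and 39981 bp (91). No list had room at these 6.

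The other 11 Veh peaks of the run had scores from 142 to 774, with a median of 282, and 10 of them were in all 3 other lists. The strongest lay 15949 bp downstream of the Ccr3 TSS, with a score of 774 in the Veh list, and the peak at the start of Ccr1 scored 731. Both were in every list. A peak 1244 bp from the Ccr2 TSS scored 142, lower than 3 of the 6 Veh-only peaks described, and was still found in every list.

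**Figure D5:**
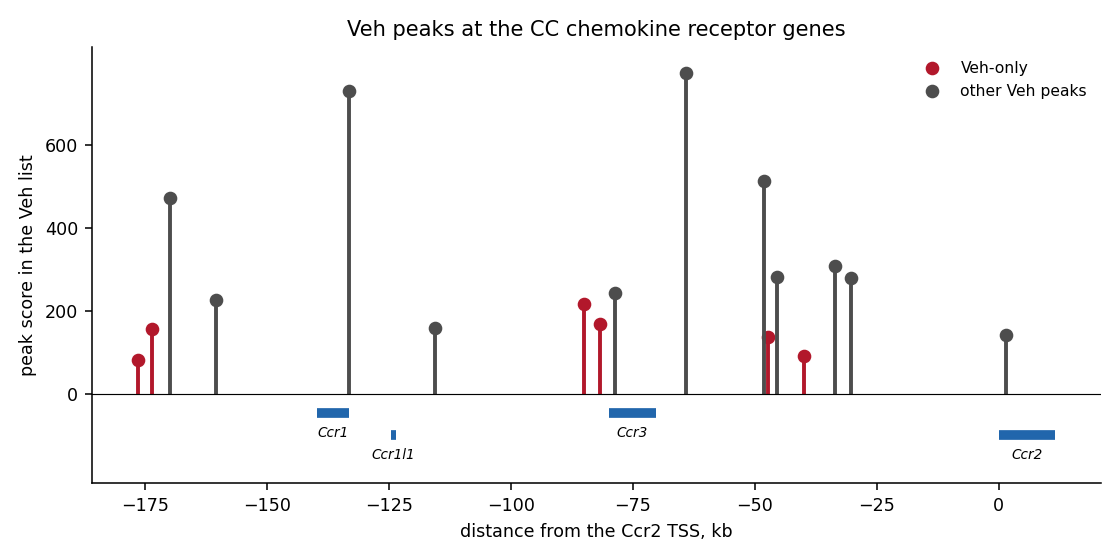
Veh peaks at the CC chemokine receptor genes, by distance of the midpoint from the Ccr2 TSS in kb (horizontal axis) and score in the Veh list (vertical axis), with gene bodies drawn as bars under the axis. The 6 Veh-only peaks shown score 81 to 216, and the 11 other peaks 142 to 774.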

How the data were processed

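ATAC-seq libraries of 4 groups (Veh, T0, LPS, T0-LPS), 4 per group by label, were analysed from 1 deposited peak list per group. The authors trimmed adaptors with cutadapt, aligned reads with Bowtie2, removed duplicates with SAMtools, called peaks with MACS2 on the 4 libraries together (q threshold 0.001, no model, fixed shift and extension) and kept peaks at macrophage enhancers marked by H3K27ac or H3K4me2. The deposited score is the authors' peak caller score; its scale is not given in the sources used here. The build mm10 is from the submitters' processing notes. Read depth is unknown.

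Peaks were merged at an overlap of 1 bp with pandas 2.3.3 and pysam 0.24.0. Midpoints were annotated with the GENCODE M21 basic annotation, and GC content, soft-masked repeats and motifs were read from RefSeq GRCm38.p6. Overlap and room counting were tested on simulated data. Of 186 genes in 9 lists, 184 were matched by symbol. Named regions were the 5 highest-scoring, the 10 highest-scoring without room (overall and near protein-coding TSSs), the 5 longest runs, the 5 genes with most regions, up to 4 genes per list, and Il1b, Abca1 and Itgb2. Members and lists were chosen with earlier results of these data known. Alternatives varied overlap, score minimum, list length, windows and room. A few items are not reported here.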

Additional observations from a re-analysis of the deposited data

How the results depend on the processing

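The number of Veh-only regions stayed within 1.5 times the main count under a reciprocal overlap of 50% (3509), with no peak of another list within 200 bp (2628) or 1 kb (1977), at a score of at least 100 (2042) and on autosomes and X only (2909). It fell to 235 at a score of at least 200, to 52 at or above the Veh median and to 978 with lists of equal length. The regions without room numbered 1319 with no other peak within 200 bp and 70 at a score of at least 200.

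The share within 1 kb of a TSS (23.2%) was 14.9% with a 500 bp window, 31.3% with 2 kb, 19.2% with protein-coding TSSs only, 11.9% at a score of at least 200 and 24.5% without room. The share of genes (32.3%) was 6.54% with a 10 kb window, 19.4% with 50 kb, 20.7% for regions without room and 10.1% by nearest protein-coding TSS. The share with any motif (45.5%) was 31.2% in the central 100 bp, 49.2% in the whole peak, 53.2% at a score of at least 200 and 44.4% without room. The lower NF-kB share of weak Veh-only peaks, by 2.81 percentage points in the central 200 bp, kept its direction in the central 100 bp and the whole peak.

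No paired analysis was possible because each list pools its 4 libraries and carries no replicate numbers. For the same reason no library was left out, and no difference was set against replicate error. Read depth, with which scores and widths grow, is unknown, and a site closed in a group cannot be told apart from one under the calling threshold there.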
